A study of Alligator mississippiensis with 17 samples.

Results

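AMBN, ENAM, AMTN and MMP20 were followed through alligator tooth replacement as 4 rows, chosen by gene symbol, of the 20703 genes in a table of RPKM (reads per kilobase of gene model, scaled to the library's alignments). Alligators shed and regrow teeth for as long as they live, with every successor budding from the dental lamina, a band of epithelium next to the functional tooth. RNA came from untreated animals of 1 year, raised in the laboratory at 30 degrees. There were 5 libraries of dental lamina before tooth initiation (PIS), 3 at initiation (IS) and 4 in early growth (EG), and 5 libraries of replacement teeth (RT), which make 17 in all. Dissected tissue was extracted whole, so in these bulk samples fewer cells of a type and less RNA per cell cannot be told apart. The labels do not say whether replicates came from separate animals, and p-values then measure only the spread between these samples.

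Enamel is laid down by ameloblasts, epithelial cells that first secrete a protein matrix and later replace it with mineral. AMBN encodes ameloblastin and ENAM encodes enamelin, structural proteins of the secreted matrix. MMP20 encodes enamelysin, the metalloproteinase that cuts matrix proteins during secretion. AMTN encodes amelotin, which in mammals appears when secretion gives way to maturation and lies between the ameloblast and the hardening enamel. In the RefSeq gene table of assembly rAllMis1, whose build may differ from that of the files, all 4 symbols matched. ENAM, AMBN and AMTN follow each other there with no other gene between them, and MMP20 lies on another chromosome.

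Depth ranged from 9667270 alignments in PIS replicate 3 to 37747400 in EG replicate 4. Of the epithelial markers, 8 of 11 were measured, and their summed level was 92.6 to 607 RPKM in PIS, 691 to 819 in IS, 750 to 997 in EG and 106 to 603 in RT libraries. None of the 8 was at 0 throughout a group. PIS replicate 5 (92.6 RPKM summed) and RT replicate 3 (106 RPKM summed) stood below the other libraries of their groups. The median gene also shifted between groups (by 0.28 on the log2 scale for IS versus PIS, 0.05 for EG versus IS, 0.34 for EG versus PIS and -0.37 for RT versus EG). Some results are therefore also given after median-ratio scaling, among them every change of sign among the 4 genes. Calls on cell type markers were counted only without it.

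The 4 genes came on in different libraries. AMBN, ENAM and MMP20 were low before and at initiation and high in every EG library, while AMTN stayed low in EG and was high in every RT library. AMBN was at 0.464, 0, 0.715, 1.58 and 2.60 RPKM in PIS replicates 1 to 5 and at 0.149, 0.175 and 0.285 RPKM in IS. In EG replicates 1 to 4 it stood at 35.3, 133, 928 and 1858 RPKM, and in RT replicates 1 to 5 at 1634, 4261, 156, 1467 and 9.62 RPKM. The lowest EG library lay above the highest PIS and IS library, and the RT libraries spanned the whole EG range.

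ENAM read 0.0984, 0, 0, 0.309 and 0.238 RPKM in the PIS libraries and 0, 0.0325 and 0 RPKM in IS. It reached 53.2, 82.1, 416 and 531 RPKM in EG and 153, 1208, 14.6, 70.6 and 7.49 RPKM in RT. Of the 4 genes it had the lowest mean in PIS and in IS. In replacement teeth 3 RT libraries exceeded the lowest EG library, and RT replicates 3 and 5 were below it.

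MMP20 was at 0.0462, 0, 0, 1.80 and 0.436 RPKM in PIS and at 0.532, 0.0229 and 0.570 RPKM in IS. It was at 48.5, 28.0, 96.8 and 123 RPKM in EG and at 129, 317, 51.1, 63.8 and 4.08 RPKM in RT. Among the EG libraries its highest value was 4.40 times the lowest, beside 52.7 times for AMBN and 9.99 times for ENAM.

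AMTN was at 0.235, 0, 0.0530, 0.301 and 0.867 RPKM in PIS, at 0.123, 0.0211 and 0.160 RPKM in IS and at 0.432, 0.554, 1.84 and 1.67 RPKM in EG. In RT it stood at 230, 17.8, 107, 1833 and 29.4 RPKM. The lowest RT library held more AMTN than any EG library. EG replicate 1 (0.432 RPKM) and EG replicate 2 (0.554 RPKM) were below PIS replicate 5 (0.867 RPKM), so EG and PIS overlapped for this gene.

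**Figure D1:**
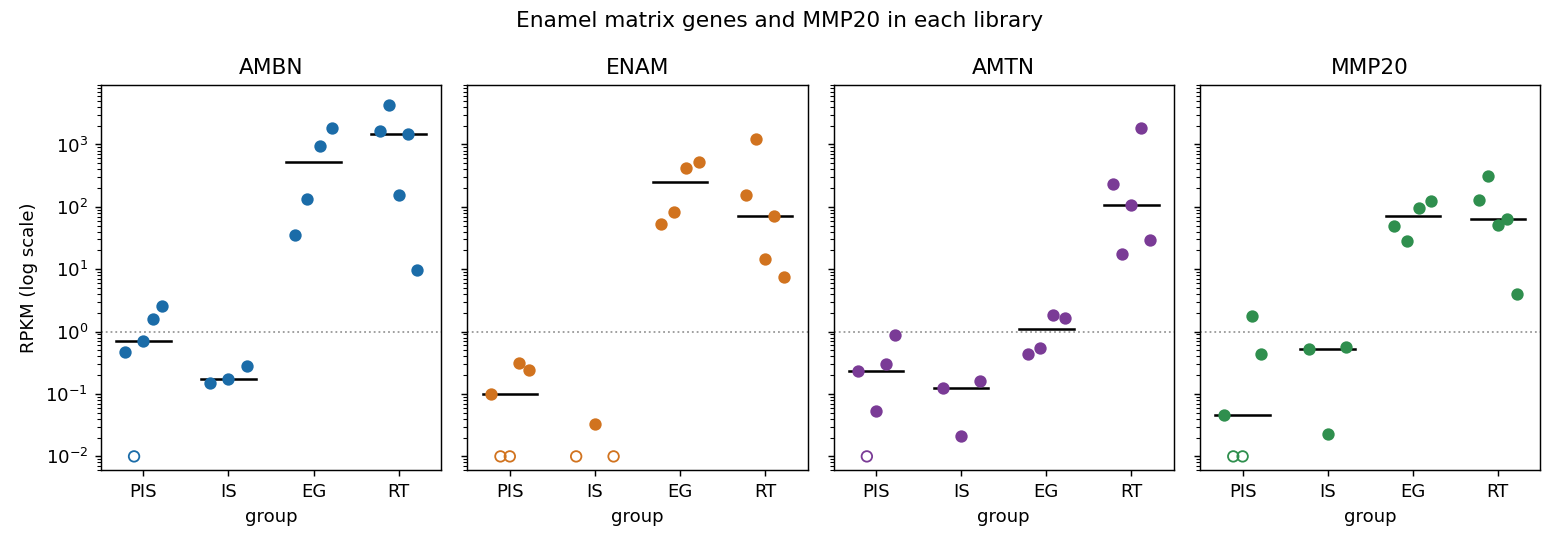
RPKM of each gene in each library on a log axis, by group. Points are libraries, in order of replicate number within a group, open points are libraries listed at 0 and drawn at the foot of the axis, bars are medians and the dotted line marks 1 RPKM. AMBN, ENAM and MMP20 stand above the line in all 4 EG libraries, and AMTN does so in 2 of them and in all 5 RT libraries.

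Counting a gene as on at 1 RPKM, ENAM was on in 0 of 5 PIS, 0 of 3 IS, 4 of 4 EG and 5 of 5 RT libraries. AMBN was on in 2 PIS libraries and MMP20 in 1, and both were on in 0 IS, 4 EG and 5 RT libraries. AMTN was on in 0 PIS, 0 IS, 2 EG and 5 RT libraries. Being on at 1 RPKM was common over the whole table. AMTN at 1.845 RPKM in EG replicate 3 exceeded 46.6% of all genes, and AMBN at 1.582 RPKM in PIS replicate 4 exceeded 48.4%. At 10 RPKM, ENAM, AMBN and MMP20 were each on in 4 EG and 4 RT libraries, RT replicate 5 being the one below. AMTN was on at that level in 0 EG and 5 RT libraries. In RT replicate 5, AMBN at 9.62 RPKM exceeded 83.0% of all genes. The order depends on the level chosen. At 0.1 RPKM, AMBN was on in 4 PIS and 3 IS libraries, AMTN in 3 PIS and 2 IS, MMP20 in 2 PIS and 2 IS and ENAM in 2 PIS and 0 IS, and all 4 genes were on in every EG and RT library. By that count AMTN, on in 14 libraries, was ahead of ENAM, on in 11. That level is near the counting floor. By the read estimates below, 3 reads in PIS replicate 1 would give 0.0984 RPKM of ENAM and 0.0639 RPKM of AMTN.

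The PIS values rested on small numbers of reads. RPKM times alignments moved in whole steps for each gene, within 0.15 reads of a whole number in every library of up to 40 reads, which gave an estimate of the reads behind each value. The estimate takes the lowest value of ENAM, AMTN and MMP20 as 1 read and that of AMBN as 7 reads. These are the smallest whole numbers that fit, and multiples of them would fit as well. They imply gene lengths of 1883 bases for AMBN, 1270 for ENAM, 1954 for AMTN and 1803 for MMP20, which were not checked against gene models. For ENAM the steps rested on 4 libraries. ENAM rested on 3, 0, 0, 10 and 5 reads in PIS replicates 1 to 5 and on 0, 1 and 0 reads in IS. AMBN rested on 76 reads in PIS replicate 4 and 81 in PIS replicate 5, of 191 in the 5 PIS libraries. MMP20 rested on 83 reads in PIS replicate 4, of 98 in that group. PIS replicate 4 was thus the library with the most MMP20 and ENAM before initiation, and PIS replicate 5 the one with the most AMBN and AMTN. In PIS replicate 2, where all 4 genes were listed at 0, 3 reads would have given 0.0548 RPKM of AMBN and 0.0813 RPKM of ENAM. These figures cover counting error only.

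Initiation itself brought no called change in these genes. AMBN averaged 0.203 ± 0.0721 RPKM in IS and 1.07 ± 1.03 RPKM in PIS (SD, n = 3 and 5), a log2 fold change of -0.90 ± 1.01 (SE; limma adjusted p = 0.524 in the fit across all genes). ENAM averaged 0.0109 ± 0.0188 RPKM in IS and 0.129 ± 0.140 RPKM in PIS (-0.27 ± 0.61, limma adjusted p = 0.754). MMP20 averaged 0.375 ± 0.306 RPKM in IS and 0.457 ± 0.775 RPKM in PIS (0.09 ± 0.55, limma adjusted p = 0.917). AMTN, at 0.101 ± 0.0719 RPKM in IS and 0.291 ± 0.345 RPKM in PIS, was too low to be tested in lamina, since a test required 1 RPKM in at least 3 libraries. For each gene the ranges of the 2 groups overlapped. Thus 0 of 3 tested members were called by limma and 0 had an unadjusted p under 0.05. Of the 12684 genes tested, 25% were called, 22.7% higher and 2.25% lower. Calls over all genes were 91.0% rises, and 52.7% after median-ratio scaling. On the log2(RPKM + 0.5) scale, which understates changes at these levels, the interval of the difference ran from -3.09 to 1.29 for AMBN. It ran from -1.59 to 1.041 for ENAM and from -1.11 to 1.28 for MMP20. The fit estimated 1 spread per gene over PIS, IS and EG, so these intervals also carry the spread between EG libraries. Leaving out EG replicate 1 took the SE of AMBN from 1.01 to 0.74. In the same comparison 0 of 8 epithelial markers were called, with a median log2 change of 0.88. Their summed level was 691 to 819 RPKM in IS and 92.6 to 607 RPKM in PIS. In IS 4 of 6 endothelial and 3 of 3 tested muscle markers were lower. Higher in IS were 3 of 3 tested leukocyte, 2 of 8 odontoblast and 1 of 9 mesenchyme markers. The part of these markers in the values above was not tested.

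Between initiation and early growth, the matrix genes and the protease gene rose together. AMBN averaged 739 ± 846 RPKM in EG and 0.203 ± 0.0721 RPKM in IS (SD, n = 4 and 3), ENAM 271 ± 239 RPKM in EG and 0.0109 ± 0.0188 RPKM in IS, and MMP20 74.1 ± 43.6 RPKM in EG and 0.375 ± 0.306 RPKM in IS. The lowest EG library lay far above the highest IS library for all 3 genes. By limma, AMBN had the rank 2, ENAM the rank 3 and MMP20 the rank 6 among 12684 genes ordered by rise. AMTN averaged 1.12 ± 0.734 RPKM in EG and 0.101 ± 0.0719 RPKM in IS, and without a filter on low values its change of 1.32 was not called (limma adjusted p = 0.131).

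The fitted log2 fold changes of EG over IS were 8.75 ± 1.06 for AMBN (SE, limma adjusted p = 0.00112), 8.44 ± 0.64 for ENAM (limma adjusted p = 2.71e-05) and 6.26 ± 0.58 for MMP20 (limma adjusted p = 0.000139). All 3 tested members were called higher. Over all genes tested 2.15% were called and 1.64% were called higher, and the share with every EG library above every IS library was 14.2%. None of the 3 would have passed the filter without the EG libraries, since AMBN reached 1 RPKM in 2 PIS libraries, MMP20 in 1 and ENAM in 0. They could be tested in lamina only because they were high in EG, which also bears on their ranks. The size of the ENAM change depends on the constant added before taking logs, at 10.65 with 0.1 and 7.46 with 1. Over whole groups, ENAM had 49737 reads in EG and 1 read in IS, a ratio, each relative to its group's alignments, of 27800 with an exact counting interval of 4990 to 1098000 at 95% confidence. AMBN, with 27 reads in IS, had a ratio of 4263 (2930 to 6469), and MMP20, with 48 reads, one of 214 (161 to 290). These intervals rest on the estimated reads and cover counting error only. They leave out the spread between libraries, at 35.3 to 1858 RPKM of AMBN within EG and 0.0229 to 0.570 RPKM of MMP20 within IS.

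Of the 8 epithelial markers, 0 were called in either direction by limma, where 2.15% of all genes tested were called. Their median log2 change was 0.47. Their summed level was 750 to 997 RPKM in EG and 691 to 819 RPKM in IS. The odontoblast list, 8 of 12 measured, had 0 higher and 1 lower, with 3647 to 5619 RPKM summed in EG and 3942 to 11630 RPKM in IS. Of the mesenchyme, endothelium, muscle, leukocyte and red blood cell markers, 0 were called. Their median log2 changes were -0.57, -0.33, -1.01, -0.58 and -1.31 in that order. With so few genes called over the whole table, these short lists do not show that cell types were unchanged. Their part in the rise was not tested.

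**Figure D2:**
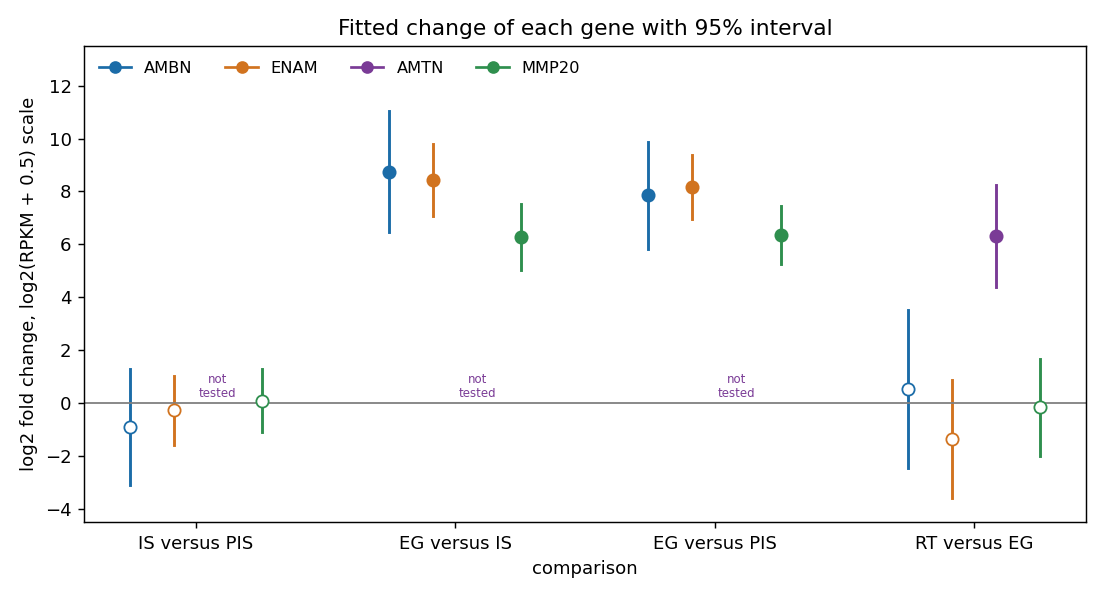
Fitted log2 fold change of each gene in 4 comparisons, on the log2(RPKM + 0.5) scale, with 95% intervals. Filled points had a limma adjusted p under 0.05, and AMTN was not tested in the lamina comparisons. AMBN, ENAM and MMP20 lie between 6 and 9 in the comparisons of EG with IS and with PIS and between -1.36 and 0.54 in RT versus EG, where AMTN lies at 6.33.

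Set against the lamina before initiation, early growth showed the same 3 genes higher. The EG means given above compare with 1.07 ± 1.03 RPKM of AMBN, 0.129 ± 0.140 RPKM of ENAM and 0.457 ± 0.775 RPKM of MMP20 in PIS (SD, n = 5). Log2 fold changes for EG over PIS were 7.85 ± 0.93 for AMBN (SE, limma adjusted p = 0.00012), 8.16 ± 0.56 for ENAM (limma adjusted p = 1.35e-05) and 6.35 ± 0.51 for MMP20 (limma adjusted p = 2.43e-05). This comparison shares its EG libraries with EG versus IS. All 3 tested members were called higher. Over all genes tested 50.5% were called, 42.9% higher and 7.58% lower. In 34.7% every EG library lay above every PIS library, and in 39.7% the ranges did not overlap in either direction. Over all genes, 85.0% of calls were rises, and 52.1% after median-ratio scaling.

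Epithelial markers moved in the same direction here, with 6 of 8 called higher and 1 lower in EG. By comparison, 42.9% of all genes tested were called higher and 7.58% lower. In EG 5 of 9 mesenchyme, 3 of 6 endothelial and 3 of 3 tested muscle markers were lower. Of the odontoblast list 2 were higher and 1 lower, and 1 of 3 tested leukocyte markers was higher. The summed epithelial level was 750 to 997 RPKM in EG and 92.6 to 607 RPKM in PIS. Taken relative to the mean log2 level of the 8 markers within each library, AMBN was 6.66 and ENAM 6.97 higher in EG. MMP20 was 5.16 higher (exact permutation test over samples, two-sided, adjusted p = 0.0212 for each gene). The raw p of 0.0159 is the smallest that 4 libraries against 5 allow. This measure subtracts the same marker level from every gene and was chosen after the data were seen. The part of epithelial content in the rise was not tested. AMTN, at 1.12 ± 0.734 RPKM in EG and 0.291 ± 0.345 RPKM in PIS, was -0.18 different on that measure (exact permutation p = 1.0). PIS replicate 5 weighed on that value, with the most AMTN of the PIS libraries and the lowest marker mean. That mean was 2.81 there and 4.93 to 5.35 in the other PIS libraries. Without the filter on low values AMTN was called higher in EG (1.01, limma adjusted p = 0.0376), with 309 reads in 4 EG libraries and 55 in 5 PIS libraries.

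In replacement teeth AMTN rose more than any other gene tested, and the earlier 3 genes had no called change. AMTN averaged 444 ± 781 RPKM in RT and 1.12 ± 0.734 RPKM in EG (SD, n = 5 and 4). Its log2 fold change of 6.33 ± 0.91 (SE, limma adjusted p = 0.000285) was the rank 1 rise among 12904 genes tested with all 17 libraries. With only the RT and EG libraries in the fit, the SE was 1.15 (limma adjusted p = 0.00683). AMTN reached 1 RPKM in 2 EG libraries and in no PIS or IS library, so it passed the filter only through the RT libraries where it was high. Of the 4 members 1 was called higher and 0 lower. Over all genes tested 43.9% were called, 4.89% higher and 39% lower. In 3.05% every RT library lay above every EG library, as for AMTN, and in 33.5% the ranges did not overlap in either direction. Called genes over the whole table were rises in 11.2% of cases, and in 59.4% after median-ratio scaling, under which AMTN was 6.63 higher (limma adjusted p = 0.000253).

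AMBN averaged 1505 ± 1708 RPKM in RT and 739 ± 846 RPKM in EG, and the fitted change was 0.54 ± 1.42 on the log2 scale (SE, limma adjusted p = 0.759, interval -2.45 to 3.53). ENAM averaged 291 ± 516 RPKM in RT and 271 ± 239 RPKM in EG (-1.36 ± 1.06, limma adjusted p = 0.295, interval -3.60 to 0.89). MMP20 averaged 113 ± 122 RPKM in RT and 74.1 ± 43.6 RPKM in EG (-0.16 ± 0.87, limma adjusted p = 0.889, interval -2.001 to 1.69). For these 3 genes RT and EG ranges overlapped. Single libraries changed the outcome. Without RT replicate 2, ENAM was called lower in RT (-2.39, limma adjusted p = 0.0244), and AMBN changed sign (-0.28). AMBN also changed sign without EG replicate 1 (-0.48), and MMP20 without EG replicate 3 (0.045), EG replicate 4 (0.16) or RT replicate 5 (0.76), none of these being called. MMP20 was also above 0 after median-ratio scaling (0.23), under which AMBN was at 0.93 and ENAM at -0.97, none called.

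Tissue marker levels varied between the RT libraries. Of 8 epithelial markers, 0 were called higher and 4 lower in RT, beside 4.89% and 39% of all genes tested. Among the 4 was the keratin gene KRT14 (-2.32), whose RT and EG ranges overlapped. It was at 299 RPKM in RT replicate 5 and at 205.5 to 296 RPKM in EG. The mean log2 level of the 8 markers was 4.82, 5.22, 3.02, 4.65 and 4.03 in RT replicates 1 to 5 and 5.65 to 6.07 in EG. Their summed level was 416, 603, 106, 386 and 457 RPKM in RT replicates 1 to 5. Replicate 5 was thus low by the mean but not by the sum. Of 8 measured odontoblast genes, 5 were higher and 0 lower. DSPP, DMP1, MEPE and NES of that list were not measured. COL1A1, a collagen gene of dentin and bone, was at 3675, 6355, 21060, 14280 and 27680 RPKM in RT. It was at 1471 to 2435 RPKM in EG and already at 2004 to 4350 RPKM in PIS. Of 9 mesenchyme markers 1 was higher and 4 were lower, 1 of 3 tested muscle markers was lower, and 0 endothelial, leukocyte and red blood cell markers were called. RT replicates 3 and 5, the 2 lowest for the epithelial markers by that mean and the 2 highest for COL1A1, were also the 2 lowest RT libraries for AMBN, ENAM and MMP20. The part of these markers in the levels of AMBN, ENAM and MMP20 was not tested.

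Without RT replicates 3 and 5, a choice made after seeing the data, AMBN was 2.85 higher in RT (limma adjusted p = 0.0763), ENAM 0.42 higher (0.731 adjusted), MMP20 1.11 higher (0.220 adjusted) and AMTN 7.05 higher (0.000843 adjusted). Because those libraries were also the 2 lowest RT libraries for AMBN, ENAM and MMP20, leaving them out raises the RT values of these 3 genes by construction. Relative to the 8 epithelial markers, AMTN was 7.87 higher in RT (exact permutation raw p = 0.0159, adjusted p = 0.0635 over the 4 genes), AMBN 2.08 higher (adjusted p = 0.402), MMP20 1.38 higher (adjusted p = 0.402) and ENAM 0.18 higher (adjusted p = 0.921, exact permutation throughout). The same marker level is subtracted from all 4 genes, and it was lower in every RT library than in any EG library. Each RT versus EG difference is therefore raised by construction on this measure. Relative to the markers, ENAM and MMP20 were above 0 and not called.

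**Figure D3:**
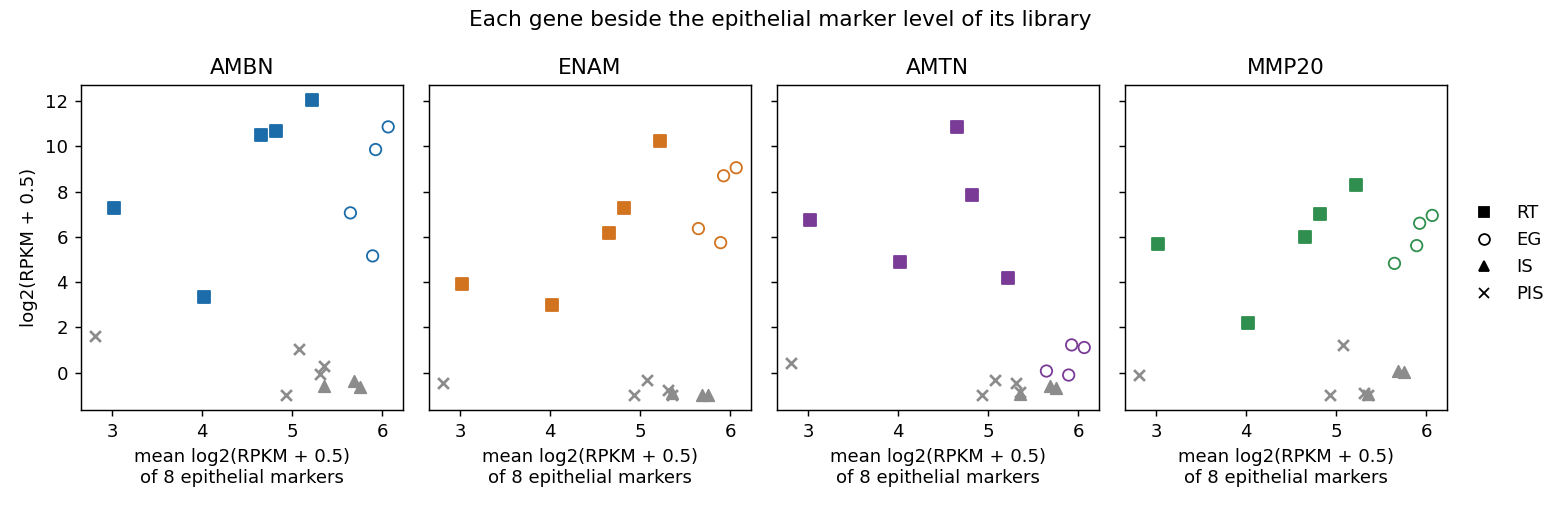
Level of each gene (log2(RPKM + 0.5), vertical axis) against the mean level of 8 epithelial markers in the same library (horizontal axis). Each point is 1 library, squares are RT, open circles EG, triangles IS and crosses PIS. RT replicates 3 and 5 are the 2 squares furthest left, at 3.02 and 4.03, and every EG library lies to the right of every RT library.

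Within a library, the shares and plain RPKM ratios of the 4 genes do not depend on how libraries are scaled. Ratios with a constant added to RPKM, as tested below, do so in part where a gene is near that constant, as AMTN was in EG. In EG replicate 1, ENAM was the most abundant of the 4 per unit length, with 38.7% of their summed RPKM, beside 35.3% for MMP20, 25.7% for AMBN and 0.315% for AMTN. In EG replicates 2, 3 and 4 AMBN led with 54.6%, 64.3% and 73.9%. The EG libraries with more AMBN also had the higher ratio of AMBN to ENAM, at 0.663, 1.62, 2.23 and 3.50 in EG replicates 1 to 4. This is partly built in, since AMBN is the numerator. In RT the ratio did not follow AMBN, at 10.71, 3.53, 10.66, 20.8 and 1.285 in RT replicates 1 to 5. AMBN had the rank 1072 among all 20703 genes in EG replicate 1, 189 in replicate 2, 23 in replicate 3 and 4 in replicate 4.

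The RT libraries split by which gene led them. AMBN led in RT replicates 1, 2 and 3, with 76.2%, 73.4% and 47.4% of the summed RPKM, and AMTN led in RT replicates 4 and 5, with 53.4% and 58.1%. RT replicate 2, the library with the most AMBN, ENAM and MMP20, had the least AMTN, at 0.307% of the sum, close to the 0.0663% to 0.315% of the EG libraries. RT replicate 4, the library with the most AMTN, had 2.06% ENAM and 1.86% MMP20. AMTN over ENAM in RPKM was 1.51, 0.0148, 7.34, 26.0 and 3.93 in RT replicates 1 to 5 and 0.00314 to 0.00813 in EG.

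**Figure D4:**
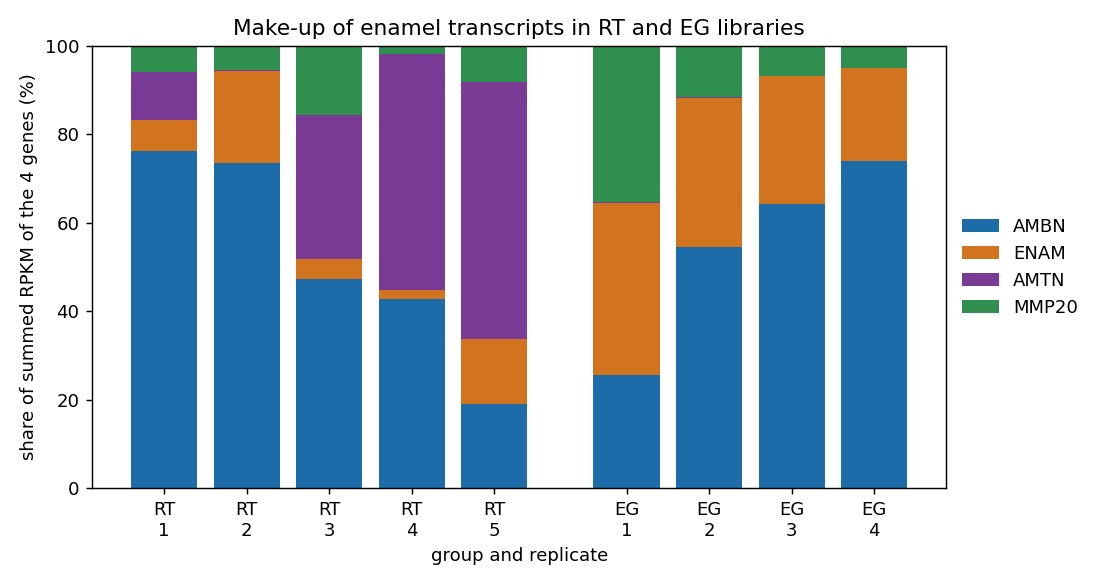
Share of each gene in the summed RPKM of the 4 genes, in percent, for the 5 RT and 4 EG libraries. AMTN holds 10.7%, 0.307%, 32.6%, 53.4% and 58.1% in RT replicates 1 to 5 and at most 0.315% in EG, and AMBN is the leading gene in EG replicates 2 to 4 and RT replicates 1 to 3.

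Every pair of the 4 genes was compared between RT and EG, which makes 6 exact permutation tests, two-sided and adjusted over the 6. AMTN over MMP20 had a mean log2 ratio of 1.06 ± 3.31 in RT and -5.42 ± 0.484 in EG (SD, n = 5 and 4), a difference of 6.48 (exact permutation p = 0.0159, adjusted p = 0.0952). That raw p is the smallest that 5 libraries against 4 allow. AMTN over ENAM differed by 7.68 (exact permutation p = 0.0317, adjusted p = 0.0952) and AMTN over AMBN by 5.79 (exact permutation p = 0.0476, adjusted p = 0.0952). No pair passed the adjusted threshold with 0.5 added to RPKM, and with 0.1 added AMTN over ENAM (8.21) and AMTN over MMP20 (7.01) did (exact permutation, adjusted p = 0.0476 for both). For AMTN over MMP20 every RT library lay above every EG library. With 0.5 added, RT replicate 2 lay within the EG range for AMTN over ENAM and for AMTN over AMBN. With nothing added, RT replicate 2 did so only for AMTN over AMBN. There AMTN over ENAM in RPKM was 0.0148, beside at most 0.00813 in EG. Without RT replicates 3 and 5, AMTN over MMP20 differed by 5.94, and 3 libraries against 4 cannot give an exact permutation p below 0.0571.

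The pairs without AMTN differed by less. AMBN over ENAM had a mean log2 ratio of 2.66 ± 1.59 in RT and 0.768 ± 1.01 in EG, a difference of 1.90 (exact permutation p = 0.0952, adjusted p = 0.143). MMP20 over ENAM differed by 1.20 (exact permutation p = 0.175, adjusted p = 0.210) and AMBN over MMP20 by 0.70 (exact permutation p = 0.603, adjusted p = 0.603). None of these 3 ratios separated the groups.

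Over the 17 libraries, AMBN, ENAM and MMP20 were more like each other than like AMTN. Pearson's r of log2(RPKM + 0.5), given as a description across libraries that share the 4 groups, was 0.97 for each pair of the first 3 genes. AMTN had r of 0.68 with AMBN, 0.62 with MMP20 and 0.53 with ENAM. By rank the gap was narrower, with Spearman's rho of 0.86, 0.83 and 0.77 for AMTN with those 3 genes and 0.92 to 0.95 among the 3. Over the 9 EG and RT libraries alone, AMTN had r of 0.26 with AMBN, 0.037 with MMP20 and -0.26 with ENAM, while the first 3 had 0.84 to 0.90 with each other.

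Among 12904 genes, those with a symbol that were most like each of the 4 were found by r over the 17 libraries. AMBN was nearest to CALB1, which encodes the calcium-binding protein calbindin (r = 0.98). CALB1 averaged 371 ± 372 RPKM in RT, 158 ± 166 RPKM in EG, 0.185 ± 0.102 RPKM in IS and 1.14 ± 1.33 RPKM in PIS. ENAM was nearest to MMP20 and AMBN and then to TESC, the gene of another calcium-binding protein (r = 0.96), and MMP20 was nearest to FREM3, a gene of an extracellular matrix protein (r = 0.97), and then to AMBN and ENAM. Genes most like AMTN included SLC1A7, a glutamate transporter gene (r = 0.94), and USP2, a gene of a ubiquitin-removing enzyme (r = 0.93).

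Both of these genes had low levels. SLC1A7 averaged 2.90 ± 1.31 RPKM in RT and 0.137 ± 0.0622 RPKM in EG, and USP2 averaged 1.34 ± 0.452 RPKM in RT and 0.231 ± 0.0545 RPKM in EG (SD, n = 5 and 4). By rank correlation both had rho of 0.82 with AMTN, below AMBN (0.86) and MMP20 (0.83), so they are nearer to AMTN than these members only by Pearson's r. LPL, the lipoprotein lipase gene that follows AMTN in the RefSeq table, was lower in RT, at 1.26 ± 0.743 RPKM in RT and 2.87 ± 1.16 RPKM in EG (-0.98, limma adjusted p = 0.0349).

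A wider list of genes of amelogenesis, 19 of 28 measured and 16 tested, moved in part with the 4 genes. It was written with earlier results of these data known. In IS, set against PIS, 6 were called higher and 0 lower, where 22.7% of all genes tested were called higher. The list had a median log2 change of 0.79 beside 0.28 over all genes tested. They were SP6 (4.57, limma adjusted p = 0.00868) and DLX3 (1.81, limma adjusted p = 0.0325), transcription factor genes of dental epithelium, FAM20A (0.90) and FAM20C (1.17), which encode a secreted pseudokinase and the kinase that it activates, the calcium channel gene ORAI1 (0.80) and CNNM4, a gene of a metal transporter (0.77). After median-ratio scaling 1 of the 16 was called higher, beside 785 of 12684 genes over the whole table, a similar share.

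SP6 was at 0 to 21.1 RPKM in PIS, 10.3 to 58.4 RPKM in IS, 103 to 151 RPKM in EG and 30.7 to 172 RPKM in RT. The 21.1 RPKM belonged to PIS replicate 4, the library with the most MMP20 in that group, which also held the most DLX3 (51.6 RPKM) and MSX2 (27.2 RPKM), homeobox genes of the tooth. MSX2 was not called for IS over PIS (1.99, limma adjusted p = 0.0713).

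Between initiation and early growth 4 of the 16 were higher and 0 lower in EG (median 0.84, beside 0.05 over all genes tested), where 1.64% of all genes were called higher. LAMB3, a laminin chain gene of the epithelial basement membrane, averaged 26.7 ± 9.49 RPKM in EG and 2.47 ± 0.0989 RPKM in IS (SD, n = 4 and 3), a change of 3.13 (limma adjusted p = 0.00593). ACPT, an acid phosphatase gene, changed by 2.77 (limma adjusted p = 0.00707), SATB1, a chromatin organiser gene, by 2.67 (limma adjusted p = 0.00582) and FAM20A by 1.08 (limma adjusted p = 0.0483). The 4 calls compare with changes of 6.26 to 8.75 for MMP20, ENAM and AMBN. ITGB6, an integrin gene of ameloblasts, averaged 2.50 ± 1.57 RPKM in EG and 0.632 ± 0.132 RPKM in IS and was not called (1.22, limma adjusted p = 0.140).

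In EG versus PIS 14 of the 16 were higher and 0 lower (median 1.83, beside 0.34 over all genes tested), where 42.9% of all genes were called higher. After median-ratio scaling 10 of the list were higher and 0 lower, beside 2123 higher and 1955 lower of 12684 genes over the whole table. FAM20A (1.99), LAMB3 (3.69), ORAI1 (1.24), DLX3 (3.66), SATB1 (2.57) and ACPT (2.72) had the smallest p, with limma adjusted p from 1e-04 to 0.000293. In RT versus EG 1 was higher and 2 lower (median -0.34, beside -0.37 over all genes tested), where 4.89% of all genes were called higher and 39% lower. FAM20C was higher in RT (2.57, limma adjusted p = 0.00041), and ORAI1 (-0.72, limma adjusted p = 0.00741) and TUFT1, the tuftelin gene (-1.54, limma adjusted p = 0.0323), were lower. After median-ratio scaling 1 was higher and 0 lower, beside 1197 higher and 820 lower of 12904 genes over the whole table. WDR72 and SLC24A4, genes linked to enamel maturation, were too low to be tested. WDR72 was listed at 0 in every PIS and IS library and reached at most 0.271 RPKM in EG and 0.328 RPKM in RT. SLC24A4 was at 0 to 3.02 RPKM in PIS, 0.402 to 1.06 RPKM in IS, 0.141 to 0.672 RPKM in EG and 0.0142 to 0.0904 RPKM in RT. KLK4, ODAM and AMELX were not found under those symbols and so were not analysed here.

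**Figure D5:**
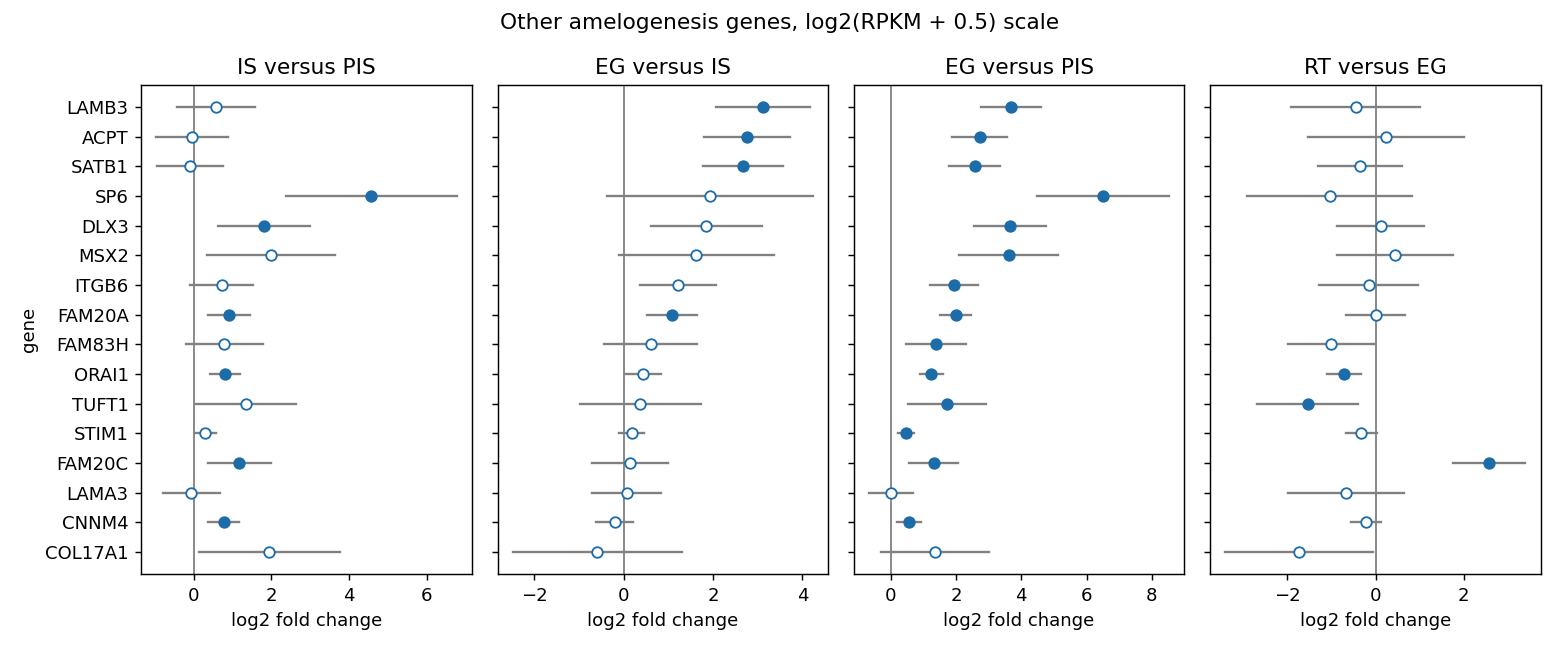
Log2 fold change of 16 other amelogenesis genes in 4 comparisons, with 95% intervals, on the log2(RPKM + 0.5) scale. Filled points had a limma adjusted p under 0.05. In EG versus IS, 4 points are filled, and SP6 is at 4.57 in IS versus PIS and at 6.51 in EG versus PIS.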

How the data were processed

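RNA of 17 libraries was made with Illumina TruSeq RNA Sample Preparation V2 kits, per the labels' protocols. The authors deposited RPKM per gene, 1 column per library, with each library's number of alignments in the same table. TopHat2 2.1.0 and Partek 3 were used, per the submitters' processing notes, which give neither a role. For genome build, annotation and strand the sources used here give nothing, so overlapping transcripts stay uncertain and positions are not given. Groups came from sample titles. A label field that reads pre-initiation for every sample was not used. The members, lists and tests were chosen with earlier results of these data known.

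Values were analysed as log2(RPKM + 0.5), which understates changes of genes near 0, with limma 3.58.1 in R 4.3.3 (1 mean per group, trended variance moderation). The filter kept genes that reached 1 RPKM in 3 or more libraries, 12684 of them for the 12 lamina libraries and 12904 for all 17. Calls used Benjamini-Hochberg adjustment over all of these at 0.05. The fits were tested on simulated data. Permutation tests were exact (scipy 1.17.1).

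Named genes were the 4 members, the 3 symbols most like each by Pearson's r, up to 6 called amelogenesis genes per comparison with the smallest p and 9 fixed ones, and up to 3 genes of each marker list. LPL was added afterwards for its position. Some named genes are not reported here. Marker lists of mesenchyme, endothelium, muscle, leukocytes and red blood cells were also scored. Alternatives were pseudocounts of 0.1 and 1, no filter, median-ratio scaling, only the 2 groups compared, a replicate block, each library left out, other thresholds and rank correlation. The measure relative to epithelial markers and the fits without RT replicates 3 and 5 or PIS replicates 4 and 5 were chosen after seeing the data.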

Additional observations from a re-analysis of the deposited data

How the results depend on the processing

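AMBN, ENAM and MMP20 were called higher in EG than in IS under all 19 alternatives and higher than in PIS under all 20. AMTN was called higher in RT than in EG under 24 of 25. The exception was the measure relative to epithelial markers (7.87, adjusted p = 0.0635 by exact permutation). There its raw p of 0.0159 was the smallest that 5 libraries against 4 allow in that test. Some alternatives in these counts left out libraries of a group outside the comparison. Those could change the estimated spread and the adjustment but not the fold changes. All alternatives reuse the same libraries, so the counts are not independent support. AMBN, ENAM and MMP20 passed the lamina filter only through EG libraries where they were high, and AMTN passed only through RT libraries. Leaving out 1 library at a time, the RT versus EG change ran from -0.48 to 1.90 for AMBN, -2.39 to -0.58 for ENAM, 5.35 to 7.01 for AMTN and -0.77 to 0.76 for MMP20. For IS versus PIS, MMP20 ran from -0.092 to 0.48 and was below 0 without PIS replicates 1 (-0.041), 2 (-0.073) or 3 (-0.073) and without IS replicates 1 (-0.066) or 3 (-0.092), never called. The AMBN over MMP20 difference ran from -0.20 (without EG replicate 1) to 1.25. Same-numbered libraries of different groups deviated together little, with a median correlation of 0.058 (-0.48 to 0.36) beside a median of -0.029 for other pairs. The correlation was over 0.1 in 8 of 22 same-numbered pairs, and 5 of 17 libraries were nearest to their own number. With a replicate block, AMBN (0.017) and ENAM (0.13) changed sign for IS versus PIS and MMP20 (0.27) for RT versus EG, none called, and no call on the 4 genes changed. Median-ratio scaling turned MMP20 to -0.023 for IS versus PIS and to 0.23 for RT versus EG, and took called amelogenesis genes to 1 for IS versus PIS (6 before) and to 1 for RT versus EG (3 before). Without a filter AMTN was called for EG versus PIS (1.01), and relative to epithelial markers it was at -0.18. That measure put ENAM at 0.18 and MMP20 at 1.38 for RT versus EG, and leaving out RT replicates 3 and 5, the lowest RT libraries for both genes, put them at 0.42 and 1.11. With a pseudocount of 0.1, AMTN over ENAM (8.21) and AMTN over MMP20 (7.01) passed. AMTN was at 0.1 RPKM in 14 libraries and at 1 RPKM in 7. The count of all genes called was 3166 for IS versus PIS, against 1489 after scaling, 1494 with only those groups and 978 to 3343 leaving out 1 library (978 without IS replicate 1, 1309 without IS replicate 3). It was 273 for EG versus IS, against 940 with only those groups, 597 without PIS replicates 4 and 5 and 69 to 439 leaving out 1 library, each IS and EG library and PIS replicate 5 moving it by over 1.5 times. For EG versus PIS it was 6404, and 4078 after scaling. For RT versus EG it was 5659, against 2017 after scaling and 1532 without RT replicates 3 and 5. The wide spread of RT libraries limits what can be said of AMBN, ENAM and MMP20 there, and few reads limit all PIS and IS values. The cause of these changes was not tested.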
